A study of Mus musculus with 41 samples.

Results

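Cholesterol is built from acetyl-CoA by the mevalonate pathway, which makes isoprenoid units, joins them into farnesyl diphosphate and squalene, and closes squalene into the first sterol, lanosterol. The enzymes of this route are common targets of SREBP2, a membrane-bound transcription factor that is released to the nucleus when sterols in the endoplasmic reticulum run low. In the nervous system cholesterol is largely made locally, and dividing progenitors, neurons and myelinating glia all use it for membranes.

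The 8 genes described here are Hmgcs1, Mvd, Idi1, Fdps, Fdft1, Sqle, Lss and Cyp51. They were chosen by symbol as enzymes of cholesterol synthesis, out of 24410 gene symbols in the table of counts, and all 8 passed the filter on low counts that left 15204 genes for testing. In order along the pathway, Hmgcs1 makes HMG-CoA, Mvd decarboxylates mevalonate diphosphate to isopentenyl diphosphate, Idi1 interconverts the pair of isoprenoid units, and Fdps joins them into farnesyl diphosphate, which also feeds protein prenylation and dolichol. Fdft1 is squalene synthase, the first step committed to sterols, Sqle is squalene epoxidase, Lss closes the ring to lanosterol, and Cyp51 removes a methyl group from lanosterol.

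The libraries came from mouse R1-iCas9 embryonic stem cells, in which doxycycline induces Cas9, taken through spinal cord neural progenitor differentiation. All groups shared the same culture: N2B27 medium with bFGF, then CHIR99021 (a GSK3 inhibitor), then retinoic acid with the Smoothened agonist SAG, then SAG alone. Guides were transfected when differentiation began. Libraries labelled Eed or Ezh2 KO carried guides against core subunits of PRC2, the complex that places a repressive methyl mark on histones. Those labelled Brd8 KO carried guides against a bromodomain protein found in the NuA4/TIP60 acetyltransferase, and those labelled Nr6a1 KO against an orphan nuclear receptor. The controls, called NT, carried a non-targeting guide in the same Cas9 cells. RNA was taken at days 7, 9 and 11, with 3 libraries in each of the 15 groups except for 2 in Brd8 at day 9 and 2 in Nr6a1 at every day, 41 in all. For each gene 5 guide RNAs were pooled and no clone is named, so a library may hold edited and unedited cells, and nothing in the labels says that replicates were separate cultures. The p-values below therefore measure the spread between these libraries, which may be technical.

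Depth ran from 8581282 to 38240227 estimated counts per library, and the 8 genes together took 0.141% to 0.29% of them, with 486 to 48101 counts per gene and library. Of 12 comparisons of a targeted gene's own RNA with NT of the same day, 1 passed the test, Ezh2 at day 11, and there it was higher in the libraries labelled Ezh2 (153 to 190 CPM, estimated counts scaled to a common library total) than in NT (118 to 152 CPM). Of the 11 that did not pass, Nr6a1 lay below NT without overlap at day 7 (114 to 132 CPM, against 171 to 182 CPM in NT) and day 9 (55.9 to 65.3 CPM, against 68.5 to 76.8 CPM), and Brd8 did at day 7 (87.8 to 94.7 CPM, against 99.6 to 113 CPM). Eed lay above NT without overlap at day 7 (27.7 to 36.1 CPM, against 24.9 to 26.3 CPM) and day 11 (16.4 to 19.4 CPM, against 13.6 to 15.4 CPM), and the other 6 overlapped NT. These counts cover whole genes and do not measure loss of protein, so the group names below are the labels. Of the libraries, replicate 3 of Eed and replicate 3 of NT at day 11 stood apart, with a highest correlation to a library of their own group of 0.945 and 0.939, and day 11 results were repeated without them. The labelled cell type, neural progenitor, matched the presence of all 7 progenitor markers in NT, whose summed level was 1335 ± 16.8, 1150.1 ± 64.6 and 1191 ± 41.6 CPM (SD, n = 3 each) at days 7, 9 and 11. Neuronal markers were also present, at 1916 ± 22.8, 2920.5 ± 133 and 2804 ± 77.4 CPM. In such bulk samples fewer cells of a type and less RNA per cell cannot be told apart.

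The promoters are shown because the 8 genes moved together, as described below. RefSeq promoter windows on GRCm38.p6, from 250 bases before to 50 bases after the start, were matched for 5 of the 8: Hmgcs1 at chr13:119690101-119690400 (plus strand), Mvd at chr8:122443373-122443672 (minus strand), Idi1 at chr13:8885356-8885655 (plus strand), Lss at chr10:76531355-76531654 (plus strand) and Cyp51 at chr5:4104648-4104947 (minus strand). Fdps, Fdft1 and Sqle are named only. Each is written 5′ to 3′ on the gene's strand, with capitals marking matches, on either strand, to 3 motifs. These were the sterol regulatory element TCACNCCAC, the CCAAT box, whose other strand reads ATTGG, and the GC box, which is GGGCGG and has CCGCCC as its other strand.
Hmgcs1: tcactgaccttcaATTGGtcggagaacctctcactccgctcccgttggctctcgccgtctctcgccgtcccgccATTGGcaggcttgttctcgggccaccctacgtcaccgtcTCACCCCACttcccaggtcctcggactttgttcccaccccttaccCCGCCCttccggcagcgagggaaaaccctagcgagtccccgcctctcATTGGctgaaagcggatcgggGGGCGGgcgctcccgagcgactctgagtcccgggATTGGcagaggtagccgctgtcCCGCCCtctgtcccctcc
Mvd: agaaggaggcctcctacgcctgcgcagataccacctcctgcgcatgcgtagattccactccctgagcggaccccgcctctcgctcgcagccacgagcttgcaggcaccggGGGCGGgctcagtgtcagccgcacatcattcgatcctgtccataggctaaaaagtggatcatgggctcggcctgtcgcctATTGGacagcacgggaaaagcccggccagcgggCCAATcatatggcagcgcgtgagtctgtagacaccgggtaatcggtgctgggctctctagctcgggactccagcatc
Idi1: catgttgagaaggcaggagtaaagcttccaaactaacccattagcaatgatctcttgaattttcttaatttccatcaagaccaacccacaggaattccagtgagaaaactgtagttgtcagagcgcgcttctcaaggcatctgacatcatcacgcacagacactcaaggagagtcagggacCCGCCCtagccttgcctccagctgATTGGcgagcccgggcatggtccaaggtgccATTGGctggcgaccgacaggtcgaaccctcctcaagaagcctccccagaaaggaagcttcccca
Lss: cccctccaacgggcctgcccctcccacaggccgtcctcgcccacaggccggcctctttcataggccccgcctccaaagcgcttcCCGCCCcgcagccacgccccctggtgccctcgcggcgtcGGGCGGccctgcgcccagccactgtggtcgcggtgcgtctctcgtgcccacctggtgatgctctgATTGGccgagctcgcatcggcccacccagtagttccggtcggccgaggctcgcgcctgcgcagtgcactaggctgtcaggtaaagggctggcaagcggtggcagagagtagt
Cyp51: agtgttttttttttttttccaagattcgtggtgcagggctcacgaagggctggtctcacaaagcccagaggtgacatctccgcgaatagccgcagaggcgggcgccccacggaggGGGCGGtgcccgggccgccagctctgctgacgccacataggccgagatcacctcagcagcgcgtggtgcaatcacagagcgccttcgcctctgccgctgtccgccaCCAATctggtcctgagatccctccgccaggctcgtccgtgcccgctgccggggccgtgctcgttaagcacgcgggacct

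The sterol element was found in 1 of the 5 windows, that of Hmgcs1, 137 bases before the start, and in 1.24% of all 32817 promoter windows. CCAAT was found in 5 of 5 and in 37.4% of all windows, and the GC box in 5 of 5 and in 35.6% of all windows. The 5 windows held 52.3% (Idi1) to 71.0% (Lss) G and C, against a median of 52.7% over all windows. None of the matches overlapped another. These are matches of letters in a window of fixed size, not measured sites.

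Per kilobase, Hmgcs1 was the most abundant of the 8 in NT and Lss the least, whichever length was used. Over the union of exons Hmgcs1 stood at 178 ± 6.33, 234 ± 14.3 and 150.3 ± 8.16 CPM per kb in NT at days 7, 9 and 11, and Lss at 16.5 ± 0.671, 18.2 ± 1.37 and 10.5 ± 1.41 CPM per kb (SD, n = 3 each). The places of Fdps and Sqle among the others depended on the length: Fdps had 37.2 ± 1.57 CPM per kb of exon union at day 7, and 113 ± 4.77 CPM per kb of its longest coding transcript.

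In NT cells the levels of all 8 genes were lower at day 11 than at day 9. Summed over the 8 genes, NT libraries had 2011 ± 58.1, 2385 ± 113 and 1535 ± 61.6 CPM at days 7, 9 and 11 (SD, n = 3 each). Between days 7 and 9 the test called 2 of the 8, both higher at day 9, beside 27.9% of all tested genes called in either direction. Between days 9 and 11 it called 8 of 8, all lower at day 11, beside 23.5% of all tested genes, with a median log2 fold change of -0.62 against -0.01 over all genes. Between days 7 and 11 it called 7 of 8, all lower at day 11, beside 45.2% of all tested genes, with a median of -0.51. The share of counts from ribosomal precursor RNA (Rn45s) in NT was higher at day 7, at 14.1% to 14.7%, than at the later days. It was 5.95% to 6.89% at day 9 and 5.18% to 6.79% at day 11, ranges that overlapped. Nr6a1 at day 7 had 6.71% to 10.4%. The part of Rn45s in these results was not tested. A gene was called where edgeR's quasi-likelihood test gave a Benjamini-Hochberg adjusted p under 0.05 over the 15204 genes of that comparison, and each log2 fold change carries its standard error (SE).

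Among the early enzymes, Hmgcs1 had 824, 788 and 846 CPM in NT at day 7, 1059, 1017 and 1146 CPM at day 9, and 734, 669 and 669 CPM at day 11. The 3 days did not overlap, and day 9 was the peak: its level rose by 0.39 ± 0.0729 (log2, SE) between days 7 and 9 (adjusted p = 6.78e-05) and fell by 0.64 ± 0.0732 between days 9 and 11 (adjusted p = 1.89e-08). Mvd had 92.7, 87.1 and 80.1 CPM at day 7, 86.6, 75.2 and 78.8 CPM at day 9, and 61.6, 53.2 and 48.9 CPM at day 11. Days 7 and 9 overlapped and all 3 day 11 libraries lay below them, with a fall of 0.55 ± 0.125 between days 9 and 11 (adjusted p = 0.000955).

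Idi1 and Fdps fell the furthest. Idi1 had 192, 176 and 186 CPM at day 7, 196, 179 and 200.5 CPM at day 9, and 103, 104 and 100.4 CPM at day 11. Its day 11 libraries lay close to each other and far below the rest, a fall of 0.90 ± 0.0915 between days 9 and 11 (adjusted p = 1.4e-09). Fdps had 159, 161 and 149 CPM at day 7, 145, 158 and 174 CPM at day 9, and 81.9, 80.0 and 87.0 CPM at day 11. It fell by 0.94 ± 0.0941 between days 9 and 11 (adjusted p = 1.09e-09), while its log2 fold change between days 7 and 9 was 0.02 with a 95% interval of -0.16 to 0.21.

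Of the squalene and sterol enzymes, Lss fell the most. Fdft1 had 161, 146 and 172 CPM at day 7, 193, 181 and 189 CPM at day 9, and 117, 122 and 132 CPM at day 11, a fall of 0.60 ± 0.0987 between days 9 and 11 (adjusted p = 1.34e-05). Sqle had 232, 227 and 241 CPM at day 7, 284, 271 and 287 CPM at day 9, and 186, 195 and 214 CPM at day 11. Sqle was the other gene to pass the test between days 7 and 9, with a rise of 0.27 ± 0.0782 (adjusted p = 0.00851), and it fell by 0.50 ± 0.0786 between days 9 and 11 (adjusted p = 6.04e-06). Lss had 183, 169 and 181 CPM at day 7, 183, 192 and 212 CPM at day 9, and 109.7, 101 and 131 CPM at day 11, with a fall of 0.78 ± 0.0965 (adjusted p = 7.4e-08). Cyp51 had 187, 189.7 and 201 CPM at day 7, 217, 211 and 219 CPM at day 9, and 166, 141 and 200.2 CPM at day 11. The day 11 libraries of Cyp51 were the most scattered of the 8 genes relative to their mean, with replicate 3 reaching into the range of day 7. Cyp51 fell by 0.35 ± 0.0825 between days 9 and 11 (adjusted p = 0.00132), and its log2 fold change of -0.19 between days 7 and 11 did not pass the test (adjusted p = 0.0577). Without replicate 3 of Eed and of NT at day 11 it did. In that fit 8 of 8 genes were called between days 7 and 11, beside 43.0% of all tested genes.

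**Figure D1:**
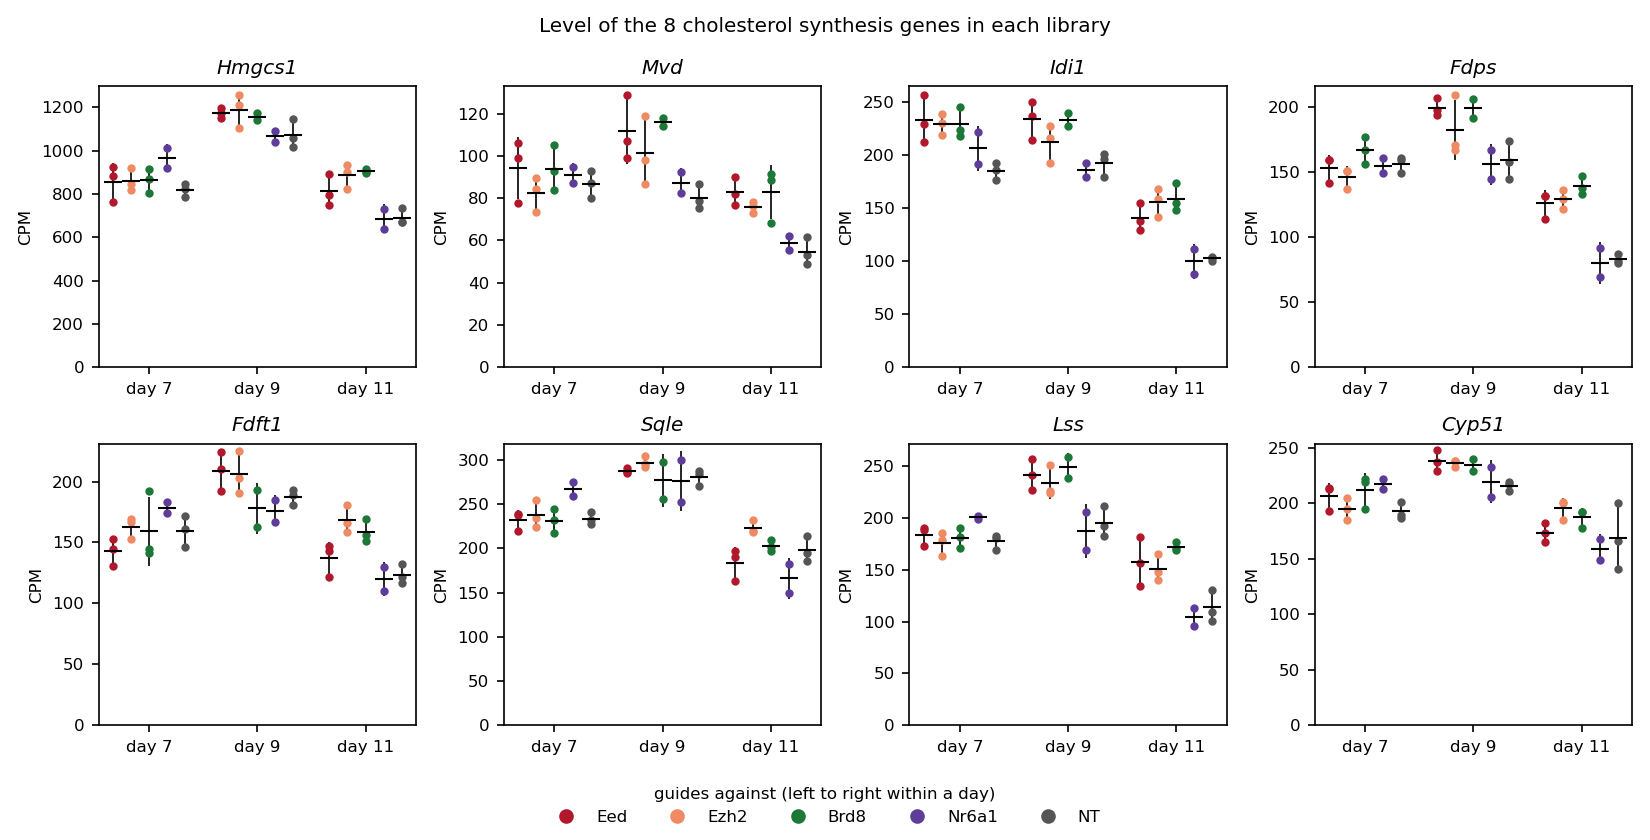
Levels of the 8 genes in every library, in CPM (vertical axes), against day of differentiation (horizontal axes), with 1 panel per gene. Points are libraries, horizontal bars are group means and vertical bars their SD; every gene has its highest mean in a day 9 group, and Eed, Ezh2 and Brd8 lie above NT at day 11 for Fdps, Idi1, Mvd, Lss and Hmgcs1.

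At day 11, libraries labelled Eed, Ezh2 or Brd8 held more RNA of most of these enzymes than NT. Those labelled Nr6a1 did not pass the test for any. The test called 5 of 8 in Eed (beside 24.0% of all tested genes), 6 of 8 in Ezh2 (beside 7.91%) and 6 of 8 in Brd8 (beside 17.8%), all of them higher than in NT. In Nr6a1 the edgeR test called 0 of 8 (beside 0.0789%), and DESeq2 called 0 of the 8 and 79 of all genes. At an unadjusted p under 0.05 edgeR had 1 of 8, beside 1243 of the 15204 tested genes. The median log2 fold change over the 8 genes was 0.35, 0.43, 0.50 and -0.04 in Eed, Ezh2, Brd8 and Nr6a1, against 0.02, 0.03, 0.02 and 0.03 over all tested genes. Without the libraries that stood apart, the shares of all tested genes called were 15.1% in Eed, 5.20% in Ezh2 and 13.9% in Brd8. The counts of 5, 6 and 6 of 8 are from all libraries and do not belong to these shares. Calls among the 8 changed in that fit too: Mvd was lost in Ezh2, and Cyp51 was called in Ezh2 and in Brd8. Summed over the 8 genes the day 11 level was 1813 ± 159 CPM in Eed, 1985 ± 98.4 CPM in Ezh2, 2007 ± 26.9 CPM in Brd8 (SD, n = 3 each) and 1474 ± 166 CPM in Nr6a1 (n = 2), against 1535 ± 61.6 CPM in NT (n = 3). These 4 comparisons share the same 3 NT libraries, so their results are not independent of each other. They also share them with the NT comparisons between days.

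Fdps, which makes farnesyl diphosphate, differed most in Ezh2 and Brd8, and as much as Mvd in Eed. It had 132, 132 and 114 CPM in Eed, 122, 129 and 136 CPM in Ezh2, 138, 147 and 133 CPM in Brd8 and 69.1 and 91.8 CPM in Nr6a1, against 81.9, 80.0 and 87.0 CPM in NT. Every library of Eed, Ezh2 and Brd8 lay above every NT library, and the Nr6a1 libraries lay on either side of NT. Its log2 fold change was 0.60 ± 0.0941 in Eed (adjusted p = 6.62e-06), 0.64 ± 0.0938 in Ezh2 (adjusted p = 1.58e-05) and 0.75 ± 0.0943 in Brd8 (adjusted p = 2.81e-07).

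Idi1, the isomerase one step earlier, had 155, 129 and 138 CPM in Eed, 158, 141 and 168 CPM in Ezh2, 155, 148 and 173 CPM in Brd8 and 88.2 and 111 CPM in Nr6a1, against 103, 104 and 100.4 CPM in NT. The same 3 groups did not overlap NT. It rose by 0.46 ± 0.0915 in Eed (adjusted p = 0.00024), 0.60 ± 0.0912 in Ezh2 (adjusted p = 2.77e-05) and 0.63 ± 0.0917 in Brd8 (adjusted p = 2.76e-06). Mvd, the decarboxylase, had 90.2, 82.0 and 76.6 CPM in Eed, 76.5, 78.0 and 72.8 CPM in Ezh2, 88.5, 91.6 and 68.2 CPM in Brd8 and 55.6 and 62.3 CPM in Nr6a1, against 61.6, 53.2 and 48.9 CPM in NT. Brd8 replicate 3 was the lowest of the 9 libraries of Eed, Ezh2 and Brd8, and still lay above NT. Mvd rose by 0.60 ± 0.125 in Eed (adjusted p = 0.000325), 0.47 ± 0.124 in Ezh2 (adjusted p = 0.0127) and 0.60 ± 0.125 in Brd8 (adjusted p = 0.000518). The call in Ezh2 was lost without NT replicate 3, without Ezh2 replicate 2 and without the libraries that stood apart, with an adjusted p of up to 0.100.

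Hmgcs1, at the head of the pathway, had 894, 794 and 749 CPM in Eed, 903, 823 and 932 CPM in Ezh2, 903, 897 and 916 CPM in Brd8 and 639 and 733 CPM in Nr6a1, against 734, 669 and 669 CPM in NT. The gap was narrow in Eed, where replicate 3 was 749 CPM beside 734 CPM in NT replicate 1. Its log2 fold change was 0.23 ± 0.0730 in Eed (adjusted p = 0.0159), 0.36 ± 0.0730 in Ezh2 (adjusted p = 0.00105) and 0.39 ± 0.0731 in Brd8 (adjusted p = 0.000138). In Eed it was no longer called without Eed replicate 1, NT replicate 2 or NT replicate 3, or with only the groups compared in the model, with an adjusted p of up to 0.169.

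Downstream of farnesyl diphosphate the 4 sterol enzymes differed from each other. Lss had 182, 157 and 134 CPM in Eed, 140.0, 148 and 165 CPM in Ezh2, 171, 169.7 and 177 CPM in Brd8 and 95.8 and 113 CPM in Nr6a1, against 109.7, 101 and 131 CPM in NT. All libraries of Eed, Ezh2 and Brd8 were above NT, the closest being Eed replicate 3 beside NT replicate 3. Lss rose by 0.48 ± 0.0965 in Eed (adjusted p = 0.000257), 0.41 ± 0.0962 in Ezh2 (adjusted p = 0.00419) and 0.60 ± 0.0966 in Brd8 (adjusted p = 1.52e-05). Fdft1 had 147, 143 and 122 CPM in Eed, 166, 159 and 181 CPM in Ezh2, 151, 156 and 169 CPM in Brd8 and 110.4 and 130.0 CPM in Nr6a1, against 117, 122 and 132 CPM in NT. Ezh2 and Brd8 lay above NT and Eed overlapped it. Fdft1 rose by 0.45 ± 0.0985 in Ezh2 (adjusted p = 0.00237) and 0.36 ± 0.0990 in Brd8 (adjusted p = 0.00803), and its log2 fold change of 0.15 in Eed had a 95% interval of -0.05 to 0.35.

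Sqle and Cyp51 passed the test in none of the 4 knockouts at day 11. Sqle had 197, 189.8 and 163 CPM in Eed, 232, 218 and 219.8 CPM in Ezh2, 201, 197 and 210.0 CPM in Brd8 and 149.9 and 182 CPM in Nr6a1, against 186, 195 and 214 CPM in NT. Ezh2 lay above NT, Nr6a1 below it, and Eed and Brd8 overlapped it. The log2 fold change of Sqle had a 95% interval of -0.27 to 0.05 in Eed, 0.01 to 0.33 in Ezh2, -0.13 to 0.19 in Brd8 and -0.43 to -0.08 in Nr6a1, before any adjustment over genes. Cyp51 had 182, 173 and 165 CPM in Eed, 200.2, 185 and 201 CPM in Ezh2, 192, 178 and 192 CPM in Brd8 and 149 and 168 CPM in Nr6a1, against 166, 141 and 200.2 CPM in NT. Each group overlapped NT, whose replicate 3 was the highest of that group. Without NT replicate 3, or without both libraries that stood apart, Cyp51 was called in Ezh2 and in Brd8, with a log2 fold change of up to 0.35 in Ezh2 and 0.29 in Brd8.

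**Figure D2:**
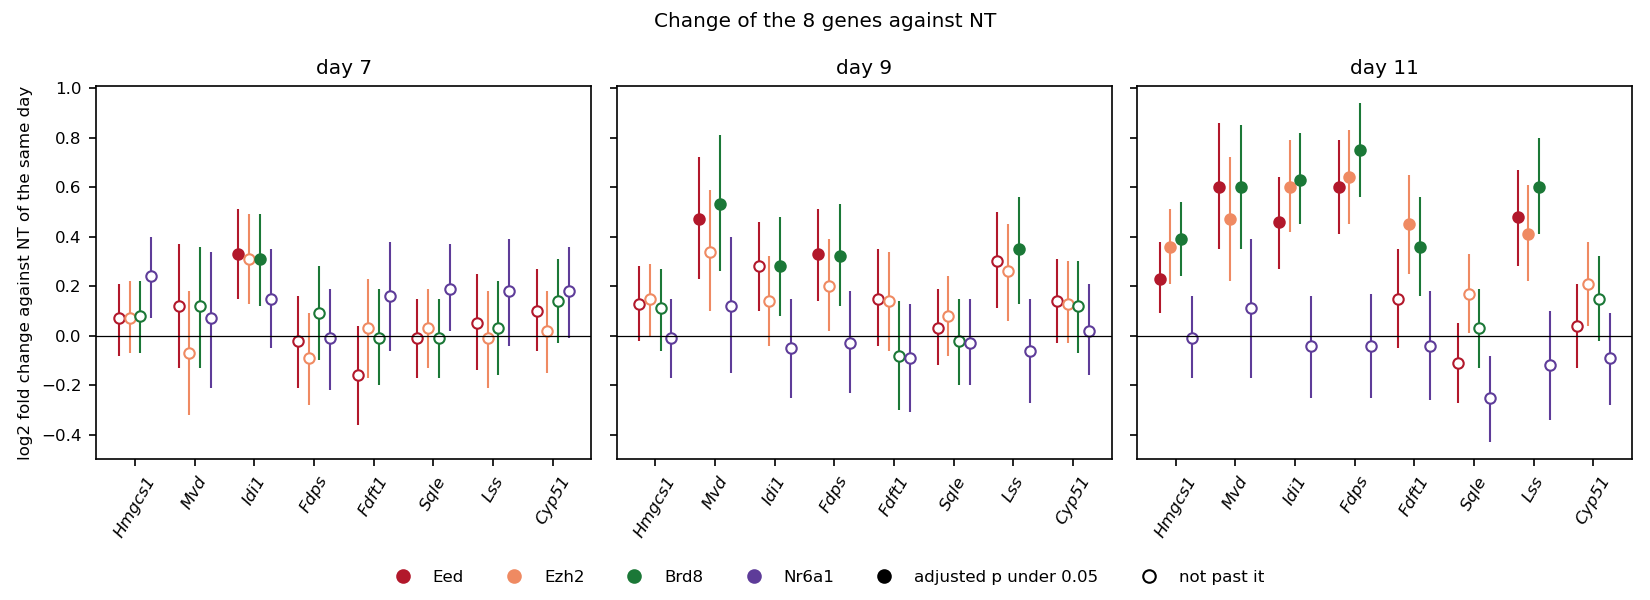
Log2 fold change (vertical axis) of each of the 8 genes (horizontal axes) for Eed, Ezh2, Brd8 and Nr6a1 against NT of the same day, in a panel each for days 7, 9 and 11, with 95% intervals from the model and filled points where the adjusted p was under 0.05. Most filled points of the knockouts are at day 11, where Fdps reached 0.75 in Brd8.

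Markers of dividing cells were higher than in NT in Eed, Ezh2 and Brd8 at day 11, as were most of the 8 genes. In NT between days 7 and 9 the markers fell, while the summed level of the 8 genes rose. At day 11 all 6 of 6 markers were called in Eed and in Brd8, and 5 of 6 in Ezh2, each higher than in NT, and their summed level was 1089.7 to 1326 CPM in Eed, 869.6 to 1085 CPM in Ezh2, 955 to 1269 CPM in Brd8 and 571 to 758 CPM in Nr6a1, against 597 to 605 CPM in NT. In NT the sum was 1925 ± 47.4, 1142 ± 107 and 600.1 ± 4.64 CPM at days 7, 9 and 11 (SD, n = 3 each). This sum was highest at day 7, whereas the summed level of the 8 enzymes was highest at day 9. Between days 9 and 11 in NT, all 6 were called lower at day 11, while 4 of 5 markers of oligodendrocyte precursors (56.7 ± 10.3 CPM at day 9 and 381 ± 66.6 CPM at day 11) and 3 of the 4 tested astrocyte markers (88.8 to 105 CPM for all 5 at day 9 and 273 to 307 CPM at day 11) were called higher.

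Other cell type markers also differed from NT at day 11. The 7 progenitor markers summed to 785 ± 43.2 CPM in Eed, 987 ± 77.0 CPM in Ezh2, 819.7 ± 62.0 CPM in Brd8 (n = 3 each) and 1081 ± 4.07 CPM in Nr6a1 (n = 2), against 1191 ± 41.6 CPM in NT (n = 3), and in each of Eed, Ezh2 and Brd8 2 were called higher and 3 lower. The 6 neuronal markers summed to 2362 ± 45.5 CPM in Eed, 2872 ± 116 CPM in Ezh2, 2578 ± 100.4 CPM in Brd8 and 2785 ± 95.9 CPM in Nr6a1, against 2804 ± 77.4 CPM in NT, with 1 called in Eed and 1 in Brd8, both lower. Of the 5 markers of oligodendrocyte precursors, 3 were called in Eed, 2 in Ezh2 and 3 in Brd8, each lower than in NT. They summed to 189.8 ± 3.50 CPM in Eed, 239 ± 62.3 CPM in Ezh2 and 276 ± 41.5 CPM in Brd8 (n = 3 each) and 559 ± 149.6 CPM in Nr6a1 (n = 2), against 381 ± 66.6 CPM in NT (n = 3). The 5 astrocyte markers summed to 213 ± 20.3 CPM in Eed, 230.1 ± 11.4 CPM in Ezh2, 222 ± 18.0 CPM in Brd8 and 373 ± 0.230 CPM in Nr6a1, against 290.3 ± 16.8 CPM in NT. Calls among the 4 tested astrocyte markers split: 1 higher and 2 lower in Eed, and 1 higher and 1 lower in Brd8. In Ezh2 1 was called, lower than in NT, and in Nr6a1 0 were called. The 6 oligodendrocyte markers, of which Mog was at 0 in every day 11 library, summed to 109.7 ± 17.1 CPM in Eed, 130.1 ± 28.1 CPM in Ezh2, 129.5 ± 21.7 CPM in Brd8 and 392 ± 185 CPM in Nr6a1, against 148 ± 6.77 CPM in NT. Epithelial markers reached 236 ± 79.3 CPM in Eed, 21.7 ± 16.4 CPM in Ezh2, 13.3 ± 12.9 CPM in Brd8 and 28.6 ± 0.631 CPM in Nr6a1, against 16.9 ± 4.10 CPM in NT. Neural crest markers reached 302 ± 21.8, 197 ± 74.0, 347 ± 62.2 and 146 ± 7.02 CPM in Eed, Ezh2, Brd8 and Nr6a1, against 131 ± 20.5 CPM in NT. Sox10 is in both the neural crest list and that of oligodendrocyte precursors, so these lists are not independent. Muscle markers summed to 40.3 ± 10.5 CPM in Eed, 18.5 ± 1.25 CPM in Ezh2, 67.3 ± 18.2 CPM in Brd8 and 8.38 ± 4.51 CPM in Nr6a1, against 1.30 ± 2.17 CPM in NT. The part of these cell types in the levels of the 8 genes was not tested.

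**Figure D3:**
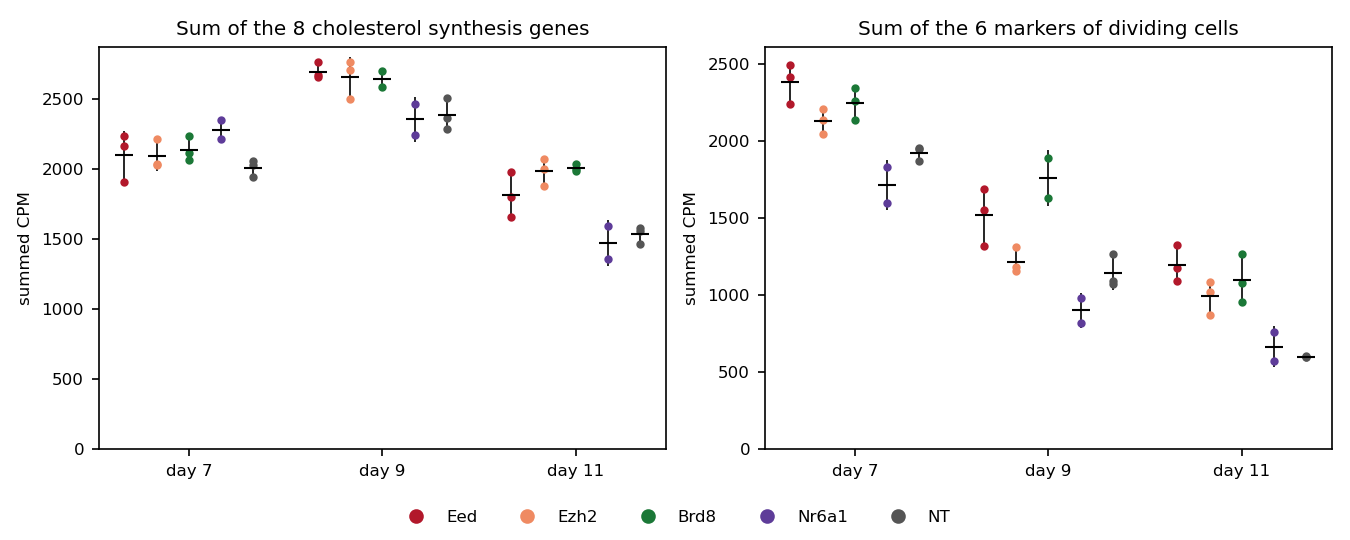
Summed level of the 8 genes and of the 6 markers of dividing cells, in CPM (vertical axes), in each library (points) by day and genotype, with group means and SD as bars. At day 11 Eed, Ezh2 and Brd8 lie above NT in both panels. In NT the sum of the 8 genes is highest at day 9 and that of the dividing-cell markers at day 7.

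At day 7 the only one of the 8 genes to pass the test was Idi1. It had 256, 212 and 229 CPM in Eed, 238, 219 and 230.2 CPM in Ezh2, 245, 223 and 218 CPM in Brd8 and 221 and 191 CPM in Nr6a1, against 192, 176 and 186 CPM in NT. All 9 libraries of Eed, Ezh2 and Brd8 lay above NT, and the lower Nr6a1 library overlapped it. Idi1 rose by 0.33 ± 0.0900 in Eed (adjusted p = 0.0150), the 1 call of 8 beside 8.66% of all tested genes, and by 0.31 ± 0.0899 in Brd8 (adjusted p = 0.0380), the 1 call beside 4.75%. In Ezh2 the log2 fold change was 0.31 ± 0.0899 (adjusted p = 0.133). There edgeR called 0 of 8 beside 0.151% of all tested genes, and DESeq2 called 1 of the 8 and 189 of all genes. At an unadjusted p under 0.05 edgeR had 1 of 8 in Ezh2, beside 1712 of the 15204 tested genes. In Nr6a1 edgeR called 0 of 8 beside 0.145%, and DESeq2 called 0 of the 8 and 59 of all genes. At an unadjusted p under 0.05 edgeR had 2 of 8 in Nr6a1, beside 1122 of the 15204 tested genes. The median log2 fold change over the 8 genes was 0.06, 0.02, 0.08 and 0.17 in Eed, Ezh2, Brd8 and Nr6a1. Summed, the 8 genes had 2104 ± 171, 2091 ± 104 and 2138 ± 87.5 CPM in Eed, Ezh2 and Brd8 (SD, n = 3 each). The sum was highest in Nr6a1, at 2282 ± 91.5 CPM (n = 2), against 2011 ± 58.1 CPM in NT (n = 3). Leaving out single libraries ended both calls of Idi1: Eed replicate 1 or NT replicate 2 for Eed (adjusted p up to 0.130), and any library of the pair of groups except Brd8 replicate 3 for Brd8 (up to 0.219). Among cell type markers at day 7, Eed had 4 of 6 dividing-cell markers and 3 of 5 neural crest markers called higher than NT and 5 of 6 neuronal markers called lower. Brd8 had 1 of 6 and 4 of 5 called higher and 4 of 6 neuronal markers called lower, and the part of these in the values of Idi1 was not tested.

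At day 9 the calls were Mvd and Fdps in Eed, and Mvd, Idi1, Fdps and Lss in Brd8, all higher than in NT. The test thus called 2 of 8 in Eed (beside 5.14% of all tested genes) and 4 of 8 in Brd8 (beside 15.5%). In Ezh2 edgeR called 0 of 8 and 0% of all tested genes, with 4 of 8 genes and 685 of all tested genes at an unadjusted p under 0.05, while DESeq2 called 0 of the 8 and 6 of all genes. In Nr6a1 edgeR called 0 of 8 beside 0.151%, and DESeq2 called 0 of the 8 and 45 of all genes. At an unadjusted p under 0.05 edgeR had 0 of 8 in Nr6a1, beside 1082 of the 15204 tested genes. Mvd had 98.8, 129 and 107 CPM in Eed, 98.1, 86.9 and 119 CPM in Ezh2, 114 and 118 CPM in Brd8 and 82.5 and 92.2 CPM in Nr6a1, against 86.6, 75.2 and 78.8 CPM in NT. Eed and Brd8 lay clear of NT, Ezh2 replicate 2 lay just above the top NT library, and Nr6a1 overlapped NT. Mvd rose by 0.47 ± 0.121 in Eed (adjusted p = 0.0178) and 0.53 ± 0.134 in Brd8 (adjusted p = 0.00475).

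Fdps had 194, 207 and 198 CPM in Eed, 167, 171 and 209 CPM in Ezh2, 206 and 192 CPM in Brd8 and 145 and 167 CPM in Nr6a1 at day 9, against 145, 158 and 174 CPM in NT. It rose by 0.33 ± 0.0915 in Eed (adjusted p = 0.0295) and 0.32 ± 0.102 in Brd8 (adjusted p = 0.0244). Eed and Brd8 again did not overlap NT. Lss had 227, 257 and 242 CPM in Eed, 224, 226 and 251 CPM in Ezh2, 259 and 239 CPM in Brd8 and 169.5 and 206 CPM in Nr6a1, against 183, 192 and 212 CPM in NT. It rose by 0.35 ± 0.105 in Brd8 (adjusted p = 0.0198), and in Eed its log2 fold change of 0.30 fell just short of the threshold (adjusted p = 0.0506). Idi1 rose by 0.28 ± 0.0993 in Brd8 (adjusted p = 0.0499), and its log2 fold change in Eed was also 0.28 (adjusted p = 0.0558). These day 9 calls rest on few libraries: when 1 library was left out, the count ran from 0 to 4 in Eed, where it was 0 without Eed replicate 2 or 3 or NT replicate 2, and from 0 to 3 in Brd8, where it was 0 without Brd8 replicate 2 and 1 without Brd8 replicate 1 or NT replicate 1 or 2. Cell type markers differed at day 9 too: in Brd8 6 of 6 dividing-cell markers, 4 of 5 of neural crest and 3 of 4 of muscle were called higher and 4 of 6 of neurons lower. In Eed 3 of 6, 3 of 5 and 1 of 4 were called higher and 1 of 6 of neurons lower. Summed dividing-cell markers were 1519 ± 184 CPM in Eed, 1216 ± 81.6 CPM in Ezh2 (n = 3 each), 1759.8 ± 183 CPM in Brd8 and 900.1 ± 115 CPM in Nr6a1 (n = 2 each), against 1142 ± 107 CPM in NT (n = 3), and their part in the day 9 values was not tested.

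Whether a knockout differed more from NT at day 11 than at day 7 was tested directly, as a difference of log2 fold changes. Fdps was called in Eed (0.63 ± 0.132, adjusted p = 0.00197), Ezh2 (0.73 ± 0.132, adjusted p = 0.00156) and Brd8 (0.65 ± 0.132, adjusted p = 0.00183). At day 7 Fdps had log2 fold changes of -0.02, -0.09 and 0.09 in these 3 groups. Lss was called in Brd8 (0.57 ± 0.136, adjusted p = 0.0088). The counts were 1 of 8 in Eed (beside 6.32% of all tested genes), 1 of 8 in Ezh2 (beside 1.41%) and 2 of 8 in Brd8 (beside 4.55%), all toward a larger excess over NT at day 11. In Nr6a1 edgeR called 0 of 8 (beside 0.112%), and DESeq2 called 0 of the 8 and 54 of all genes. At an unadjusted p under 0.05 edgeR had 3 of 8 in Nr6a1, beside 1179 of the 15204 tested genes. The call of Idi1 at day 7 and its larger value at day 11 did not differ past the threshold, with 0.12 in Eed (adjusted p = 0.668) and 0.33 in Brd8 (adjusted p = 0.164).

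Between the knockouts of the 2 PRC2 subunits, Eed against Ezh2 at day 11, the test called 1 of 8, beside 2.88% of all tested genes. Without the libraries that stood apart this call was lost, and 0.836% of all tested genes were called. Sqle was lower in Eed than in Ezh2 by a log2 fold change of -0.28 ± 0.0784 (adjusted p = 0.0411), with no overlap of the libraries given above. Fdft1, at -0.30 ± 0.0979, did not pass (adjusted p = 0.0886). For Fdps the 95% interval of the difference was -0.22 to 0.15 and for Lss -0.13 to 0.26. The Sqle call was lost in 8 of 12 alternatives, among them every library of Ezh2 and Eed replicates 2 and 3 left out in turn, with an adjusted p of up to 0.285.

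The 8 genes followed each other closely across the study. Over the 15 group means of log2 CPM the 28 pairs had correlations of 0.72 to 0.98 with a median of 0.90, and over the 41 libraries 0.63 to 0.96 with a median of 0.85. These points share groups, depth and the common course of differentiation, so the values are descriptions. Ordered by mean level, a day 9 group was highest for each of the 8 genes, and Nr6a1 at day 11 was lowest for 7 of them, with NT at day 11 lowest for Mvd. The ratio of highest to lowest group mean ran from 1.5 in Cyp51 to 2.48 in Fdps. Neighbours in that order were mostly inside their spread: between 0 (Fdft1, Cyp51) and 3 (Sqle) of the 14 steps were larger than the SDs of the neighbouring groups. For the sum of the 8, the order began with Eed at day 9 (2696 ± 58.1 CPM), Ezh2 at day 9 (2658 ± 139 CPM) and Brd8 at day 9 (2642 ± 78.2 CPM), which did not differ beyond their SD, and ended with Nr6a1 at day 11.

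Among genes outside the lists of sterol and fatty acid genes, and with a mean of at least 5 CPM, those whose group means were most like the mean of the 8 included Acsl4 (r = 0.96, 15 groups), Rarb (0.95), Fbxo45 (0.95), Moxd1 (0.94), Zfp113 (0.93), Morf4l1 (0.93) and Zfp664 (0.92). Acsl4 links fatty acids to coenzyme A and Rarb is a retinoic acid receptor. Within the lists, Acat2 (0.97) and Acly (0.96) were among the most alike. For comparison, the 8 genes themselves, which enter that mean, had values of 0.90 (Idi1) to 0.98 (Lss and Cyp51).

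The other 14 enzymes of sterol synthesis were measured as well. In NT between days 9 and 11, 10 of 14 were called, all lower at day 11, with a median log2 fold change of -0.55, beside the 23.5% of all tested genes. At day 11 the test called 5 of 14 in Eed, 5 in Ezh2 and 7 in Brd8, each higher than in NT, with medians of 0.22, 0.28 and 0.29, beside the 24.0%, 7.91% and 17.8% of all tested genes that hold for every list at day 11. Msmo1, the sterol methyl oxidase after Cyp51, rose by 0.40 ± 0.0901, 0.44 ± 0.0899 and 0.59 ± 0.0903 in Eed, Ezh2 and Brd8 (adjusted p = 0.000836, 0.00119 and 7.25e-06). Lbr, which is both a sterol reductase and a protein of the inner nuclear membrane, rose by 0.75 ± 0.116, 0.58 ± 0.115 and 0.81 ± 0.116 (adjusted p = 5.46e-06, 0.000886 and 2.2e-06).

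Genes that regulate the pathway went in both directions. Of the 7 SREBP regulators, 2 were called in Eed, 2 in Ezh2 and 4 in Brd8 at day 11, with medians of 0.02, 0.01 and 0.21. The shares of all tested genes called were 24.0%, 7.91% and 17.8%, so the count in Eed was near that of all genes. Srebf2, which encodes SREBP2, averaged 434 CPM in Eed, 432 CPM in Ezh2 and 436 CPM in Brd8, against 353 CPM in NT, a rise of 0.30 ± 0.0764, 0.29 ± 0.0763 and 0.31 ± 0.0765 (adjusted p = 0.00332, 0.0116 and 0.00360). In NT it fell by 0.51 ± 0.0764 between days 9 and 11 (adjusted p = 3.34e-06). Srebf1, whose products mainly drive fatty acid synthesis, went the other way: it fell by 0.50 ± 0.116 in Eed (adjusted p = 0.00133) and by 0.39 ± 0.116 in Brd8 (adjusted p = 0.0161), with a log2 fold change of -0.33 in Ezh2 (adjusted p = 0.0671), and in NT it rose by 0.49 ± 0.115 between days 9 and 11 (adjusted p = 0.00160). Insig1, which holds SREBP in the endoplasmic reticulum and is itself an SREBP target, rose by 0.32 ± 0.102 in Ezh2 (adjusted p = 0.0467) and 0.30 ± 0.103 in Brd8 (adjusted p = 0.0349), and its log2 fold change in Eed was 0.21 (adjusted p = 0.141).

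Uptake and transport genes split. Of 7, the test called 4 in Eed (2 higher, 2 lower), 3 in Ezh2 (1 higher, 2 lower) and 4 in Brd8 (2 higher, 2 lower), with median log2 fold changes of -0.03, 0.09 and 0.09. Stard4, a carrier of cholesterol in the cytosol, rose by 0.43 ± 0.109, 0.39 ± 0.108 and 0.60 ± 0.109 in Eed, Ezh2 and Brd8 (adjusted p = 0.00295, 0.0167 and 9.83e-05). Lrp8, a receptor for apolipoprotein E and reelin, fell by 0.98 ± 0.0965, 0.54 ± 0.0955 and 0.84 ± 0.0963 (adjusted p = 1.35e-09, 0.000196 and 3.95e-08). Npc1, which exports cholesterol from lysosomes, fell by 0.41 ± 0.0889, 0.31 ± 0.0884 and 0.43 ± 0.0891 (adjusted p = 0.000649, 0.0220 and 0.000558).

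Of the 9 genes of sterol export and its LXR regulators, Abca1, the cholesterol efflux pump, was the 1 call in Eed and in Brd8. In Ezh2 edgeR called 0 of 9, with 1 of 9 at an unadjusted p under 0.05, beside 3162 of the 15204 tested genes. In each group the share called was below that of all tested genes. The medians of the list were 0.14, -0.06 and -0.13 in Eed, Ezh2 and Brd8. Abca1 fell by 0.58 ± 0.162 in Eed (adjusted p = 0.00696) and by 0.50 ± 0.162 in Brd8 (adjusted p = 0.0268), with a log2 fold change of -0.45 in Ezh2 (adjusted p = 0.0822), and in NT it rose by 1.09 ± 0.164 between days 9 and 11 (adjusted p = 3.09e-06). Of 10 genes of fatty acid synthesis, 3 were called in Eed (2 higher, 1 lower), 1 in Ezh2 and 2 in Brd8 (all higher), shares near those of all tested genes, with medians of 0.02, 0.05 and 0.05. The lower one in Eed was Fads2, a fatty acid desaturase, which fell by 0.26 ± 0.0930 (adjusted p = 0.0409). Acly, which makes the cytosolic acetyl-CoA used by both pathways, rose by 0.18 ± 0.0652, 0.22 ± 0.0651 and 0.31 ± 0.0652 in Eed, Ezh2 and Brd8 (adjusted p = 0.0386, 0.0247 and 0.000709). Scd1, another desaturase, rose by 0.43 ± 0.101 in Eed (adjusted p = 0.00160) and 0.64 ± 0.102 in Brd8 (adjusted p = 1.37e-05).

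**Figure D4:**
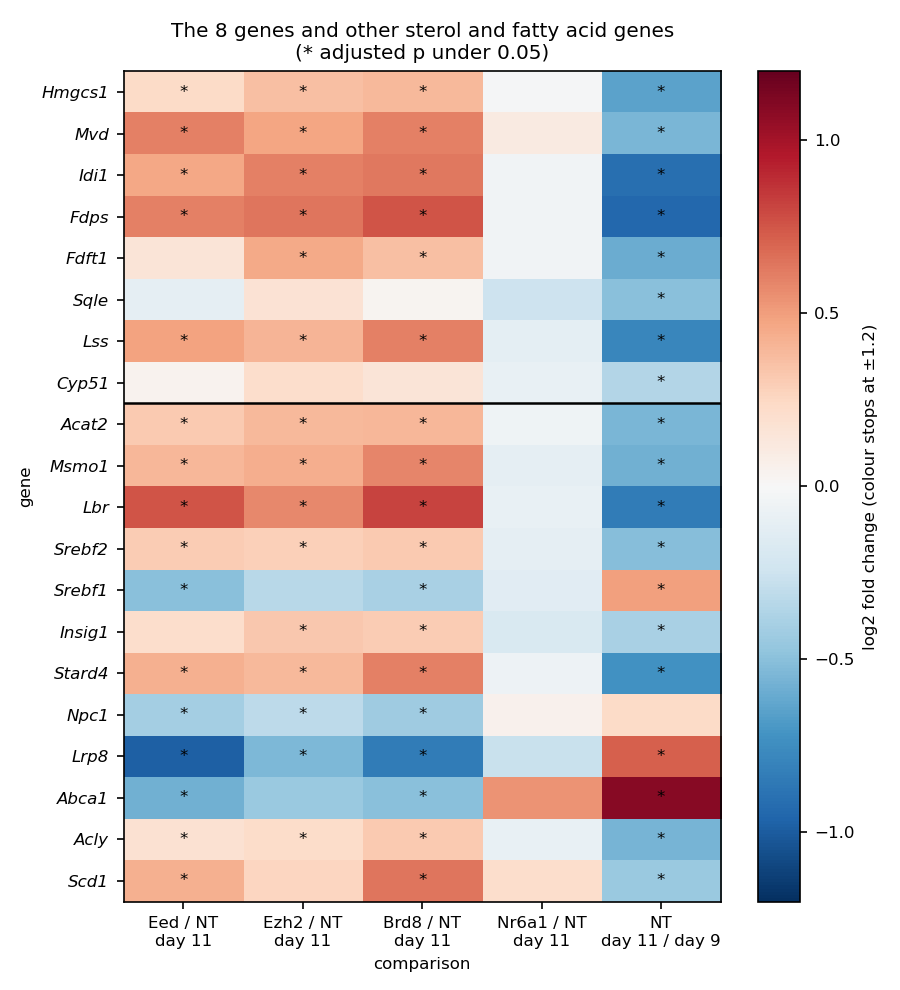
Heat map of log2 fold changes (colour, stopping at 1.2 in either direction) of the 8 genes and, below the line, of 12 other sterol and fatty acid genes named in the text, in rows, for Eed, Ezh2, Brd8 and Nr6a1 against NT at day 11 and for NT at day 11 against day 9, in columns. Fads2, also named in the text, is not drawn. Stars mark an adjusted p under 0.05; Fdps, Idi1 and Lss are red in Eed, Ezh2 and Brd8 and blue in the NT column, while Srebf1 and Abca1 have the opposite colours.

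On GRCm38 (GENCODE M21), Hmgcs1 lies on chromosome 13 (119690379 to 119708260) with Idi1 (8885501 to 8892451), Mvd on chromosome 8 (122433601 to 122443422), Fdps on chromosome 3 (89093588 to 89101959), Fdft1 on chromosome 14 (63145150 to 63179578), Sqle on chromosome 15 (59315077 to 59331192), Lss on chromosome 10 (76531588 to 76557138) and Cyp51 on chromosome 5 (4081145 to 4104746). Some of their reads could belong elsewhere. Fdps has 6 processed pseudogenes and shares 929 bases with the overlapping Gm43738, Idi1 has 4 processed pseudogenes of which 1 (Gm13502) matched it over 684 bases without a difference, and Fdft1 has 1 (Gm6781). None of these is listed in the table of counts, so where their reads went is uncertain. Fdft1 and Ctsb, on opposite strands, share 774 bases, and Cyp51 overlaps Akap9 on the other strand. The libraries were directional, but whether counting used strand is not given in the sources used here.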

How the data were processed

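The values are estimated counts per gene symbol and library, deposited by the authors as raw counts; 2.95% of all values had a fraction and were rounded, but none of the values of the 8 genes had one. Per the labels' protocols, libraries were directional and ribodepleted from total RNA, although the labels call the molecule genomic DNA. Of builds and tools, mm10 and DESeq2 appear in the submitters' processing notes. No aligner, counting tool or annotation is given in the sources used here. Counts were tested in R 4.3.3 with edgeR 4.0.16: filterByExpr by group, TMM scaling and 1 quasi-likelihood model over 41 libraries (common biological coefficient of variation 0.182), in 20 comparisons, each with two-sided p-values and Benjamini-Hochberg adjustment over 15204 genes. Alternatives were DESeq2 1.42.0, its size factors, no filter, a replicate block, only the groups compared, and libraries left out. The 8 genes, the other lists and the libraries that stood apart were chosen with earlier results of these data known. Named genes were all 8, Srebf2, Srebf1, Insig1 and, per list and comparison, up to 3 others with the smallest adjusted p, of which examples are given; some genes of these lists are counted but not reported by name here. Correlations used log2 CPM with a prior count of 2.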

Additional observations from a re-analysis of the deposited data

Results flagged for a closer look

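For Fdps, the difference from NT at day 11 was larger than at day 7 by the test of the difference itself in 3 knockouts: by 0.63 ± 0.132 (log2, SE) in Eed (adjusted p = 0.00197), 0.73 ± 0.132 in Ezh2 (adjusted p = 0.00156) and 0.65 ± 0.132 in Brd8 (adjusted p = 0.00183). For Lss it was larger by 0.57 ± 0.136 in Brd8 (adjusted p = 0.0088). These 4 results share the NT libraries of both days.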

How the results depend on the processing

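Of 160 pairs of gene and comparison, 47 were called, 35 of them under every alternative; 12 lost the call under at least 1, none of the 47 reversed, and 16 of the other 113 were called under at least 1. All 8 genes remained called in NT between days 9 and 11 under every alternative. In Eed at day 9 the count was 4 in place of 2 without the filter, with the replicate block and in DESeq2. There DESeq2 called 1106 of all genes, against 782 in edgeR. In Ezh2 at day 7 the count of the 8 was 1 in place of 0 without the filter, in DESeq2 and with only the groups compared. The last of these also gave 4 in place of 2 in NT between days 7 and 9. For the difference between days 11 and 7 the count in Eed was 3 without the filter and 2 with the block, in DESeq2 and without the libraries that stood apart, in place of 1. In Ezh2 it was 2 without the filter and without those libraries, in place of 1. DESeq2 called 1185 of all genes for this difference in Eed. Without the libraries that stood apart, 4.20% of all tested genes were called in Eed and 1.07% in Ezh2. In Eed against Ezh2 the count of the 8 was 2 without the filter, and 0 with DESeq2 size factors, with only the groups compared and without the libraries that stood apart, in place of 1. With 1 library left out, counts ran from 0 to 1 in Eed at day 7, 0 to 4 in Eed at day 9, 0 to 1 in Brd8 at day 7, 0 to 3 in Brd8 at day 9, 1 to 2 in the difference between days in Eed and in Ezh2, and 0 to 1 in Eed against Ezh2. Of the 113 uncalled log2 fold changes, 36 changed sign under at least 1 alternative, the smallest adjusted p among them being 0.323 with all libraries; the values and intervals in the report that this touches outside Nr6a1 were Sqle in Eed at day 11 (0.02 without the libraries that stood apart, -0.11 with them), Cyp51 in Eed at day 11 (-0.08 to 0.17 without 1 library, 0.04 with all), Sqle in Brd8 at day 11 (-0.01 to 0.09, against 0.03) and Fdps in NT between days 7 and 9 (-0.04 to 0.08, against 0.02), and, over all alternatives, Fdps in Eed at day 7 (-0.06 to 0.03) and, in Eed against Ezh2, Fdps (-0.08 to 0.03) and Lss (-0.06 to 0.17). The causes were not tested. Replicate numbers did not pair the libraries: none of 32 same-numbered pairs of libraries had a correlation of deviations above 0.1 (range -0.03 to 0.08). The replicate block otherwise left every count of the 20 comparisons within 1.5 times that of the model without it. DESeq2 size factors shifted the median gene by at most 0.030 (log2) in size. Leaving out 1 of 2 libraries leaves a group with 1, whose spread is then taken from the other groups.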
